A study of Mus musculus with 6 samples.

Results

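The natriuretic peptide system was examined in atria of obese and lean mice through 9 genes chosen by name, namely the ligands Nppa, Nppb and Nppc, the receptors Npr1, Npr2 and Npr3, and the proteases Corin, Furin and Mme. All 9 were found by symbol among the 43432 genes of the deposited table, of which 24679 had a read in any mouse. RNA of right and left atrial tissue together was sequenced from 3 obese mice, fed a high-fat diet (HFD), and 3 lean mice, fed control chow, all of them wild-type C57/Bl6J. Feeding began at 6 weeks of age and lasted 10 weeks in both groups, and the labels do not give the sex. The diet of each mouse was read from its title. The treatment entry of the labels names the other diet in all 6 cases, so every direction below rests on the titles. The headers of the deposited columns, Case for the mice titled HFD and Control for the others, give the same groups as the titles.

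Atrial cardiomyocytes store natriuretic peptides in granules and release them when the wall is stretched. Nppa encodes atrial natriuretic peptide (ANP) and Nppb encodes B-type natriuretic peptide (BNP), both made as prohormones that proteases cut into the active form. The peptides act on NPR-A, a guanylyl cyclase receptor that raises cGMP in kidney, vessel and heart cells, while the clearance receptor and the peptidase neprilysin remove them. They promote loss of sodium and water, relax vessels and promote lipolysis in adipocytes. Nppa and Nppb are also classical readouts of cardiomyocyte load.

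The samples held from 15874251 to 28971508 reads on genes, with lean mouse 2 the deepest and the one with the highest share of mitochondrial reads (30.7%, against 19.5% to 24.4% in the others). Values are the authors' reads per gene divided by one size factor per sample, called normalized counts, and 3 reads, the smallest number taken as a signal, equal from 2.05 to 3.41 of them. The obese and lean groups were set against each other in limma, on log2(normalized count + 1), for the 15275 genes with a mean of at least 10, and p-values were adjusted over all of these genes by the Benjamini-Hochberg method. Fold changes are obese minus lean on that log2 scale, where the added 1 shrinks the change of genes with low counts. Each numbered sample is called a mouse here, though the labels do not say that it was 1 animal, and the p-values measure the spread between these 6 samples. With 3 mice in each group, the smallest two-sided p of an exact permutation test is 0.1. Obese mouse 3 stood apart from the other obese mice in many cardiomyocyte genes, and results that rest on it are given with and without it. In bulk tissue, fewer cells of a type and less RNA per cell cannot be told apart.

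None of the 8 genes tested differed between obese and lean atria at an adjusted p under 0.05 in limma, against 0.746% of all genes tested (0.484% higher and 0.262% lower in obese atria). On the recovered reads, edgeR called 0 of the 8 and DESeq2 called 0 of the 7 for which it gave a p-value, Nppb having none, with 0.57% and 3.08% of all genes called. An unadjusted p under 0.05 in limma was found for Furin and Mme, 2 of 8, where 12.2% of all genes had one. The ranges of the 2 groups were apart for Npr1, Furin and Mme, 3 of 8, where 18% of all genes did not overlap. The median log2 fold change of the 8 genes was 0.07, beside 0.0049 over all genes. Without obese mouse 3, limma called 1 of the 8, Nppb, and 2.24% of all genes.

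**Figure D1:**
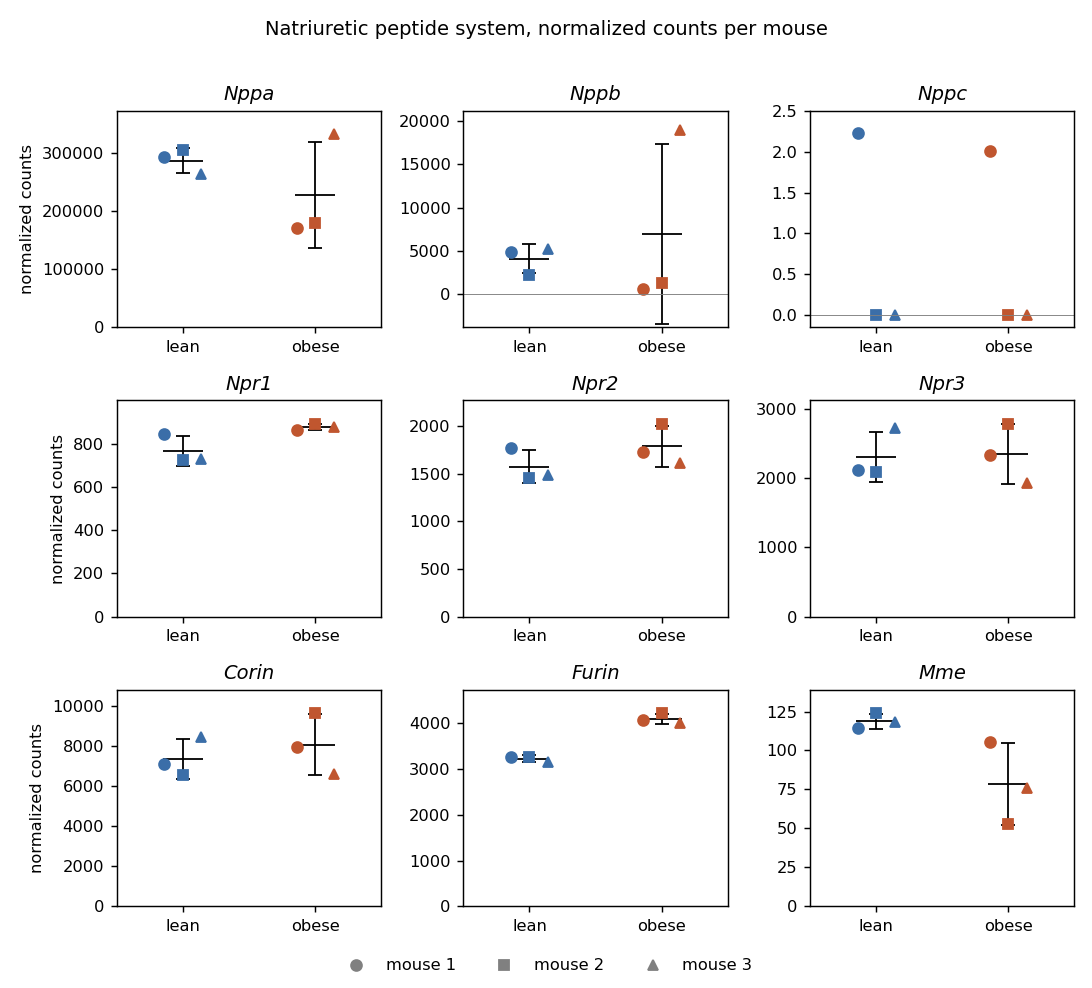
Normalized counts of the 9 genes of the natriuretic peptide system in each of the 3 lean (blue) and 3 obese (orange) mice, with 1 panel per gene, an axis of its own in each and marker shapes for the mouse number. Horizontal lines are group means and bars are 1 SD, left out for Nppc, which had at most 2 reads in any mouse. Obese mouse 3 lies above all lean mice for Nppa and Nppb while obese mice 1 and 2 lie below them, and the groups are apart for Npr1, Furin and Mme.

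Nppa and Nppb lie next to each other on the plus strand of chromosome 4, and the gene start of Nppb lies 14934 bases before that of Nppa (GRCm38). The sequences upstream of the 2 genes are shown because the transcription factors that bind Nppa regulatory DNA were among the genes examined below. They are from RefSeq (GRCm38.p6), plus strand, 5′ to 3′, and end before the first annotated exon, at chr4:148000472-148000721 for Nppa and chr4:147985650-147985785 for Nppb. Capitals mark matches on either strand to the core letters of 5 elements of cardiac promoters, the T-box, NKX2-5, GATA, TATA box and M-CAT elements, the last bound by TEAD factors.
Nppa: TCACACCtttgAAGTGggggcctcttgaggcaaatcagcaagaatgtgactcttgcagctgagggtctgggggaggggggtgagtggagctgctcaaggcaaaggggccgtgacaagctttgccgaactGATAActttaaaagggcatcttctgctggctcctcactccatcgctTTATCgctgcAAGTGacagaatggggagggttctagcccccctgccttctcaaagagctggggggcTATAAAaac
Nppb: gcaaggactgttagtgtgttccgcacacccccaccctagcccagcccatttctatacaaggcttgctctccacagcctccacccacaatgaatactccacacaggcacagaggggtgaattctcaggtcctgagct

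The 250 bases before Nppa held 1 match to the T-box letters TCACACC, beginning 250 bases before the gene start, a string found in 3.33% of 32851 promoter windows of the same length. They held 2 matches to the NKX2-5 letters AAGTG, at 239 and 65 bases before the start (40.7% of windows), and 2 to the GATA letters GATAA, at 121 and, on the opposite strand, 75 bases before it (22.6% of windows). The TATA box letters TATAAA began 9 bases before the start (12.4% of windows). The M-CAT letters, CATTCC, had 0 matches (12.6% of windows). In the 136 bases before Nppb none of the 5 strings was found, where windows of that length held them in 1.89%, 25.0%, 14.4%, 6.74% and 7.41% of promoters in the order given above. No searched matches overlapped one another. These matches describe letters in the windows only.

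Nppa (ENSMUSG00000041616, chromosome 4 from 148000722 to 148002079), the ANP gene, ranked 10 among all tested genes by mean level. It had 171702, 179008 and 333975 normalized counts in obese mice 1, 2 and 3 and 294185, 305627 and 263703 in lean mice 1, 2 and 3. Obese mice 1 and 2 were below every lean mouse and obese mouse 3 was above every lean mouse, so the groups overlapped. Group means were 228228 ± 91652 in obese against 287838 ± 21671 in lean mice (SD, n = 3 in each group), with a log2 fold change of -0.40 (standard error 0.28, 95% interval -1.01 to 0.21, adjusted p = 0.617 in limma). The exact permutation test, two-sided, gave p = 0.4. Without obese mouse 3 it was -0.71 (adjusted p = 0.0781 in limma), still short of the threshold. Without obese mouse 1 it was -0.23 and without obese mouse 2 it was -0.26, and with quantile normalization it was -0.10 (adjusted p = 0.920 in limma).

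As a share of all reads on genes, Nppa took 0.985%, 1.04% and 1.85% in obese mice 1, 2 and 3 and 1.63%, 1.54% and 1.48% in lean mice 1, 2 and 3. These shares rest on 170922 to 446573 reads, and the 95% Wilson interval was 1.03% to 1.04% in obese mouse 2 and 1.85% to 1.86% in obese mouse 3, covering counting error only. Among reads on nuclear genes the shares were 1.302%, 1.34% and 2.30% in obese and 2.15%, 2.22% and 1.96% in lean mice, the same separation of obese mouse 3 from obese mice 1 and 2. An antisense transcript, Gm13054, overlaps Nppa on the opposite strand. Its level was 8531, 9747 and 14102 normalized counts in obese and 8888, 12907 and 10227 in lean mice. Whether reads were counted by strand is not given in the sources used here, so reads of Nppa and Gm13054 may not be fully separated, with means over the 6 mice of 258033 and 10734 normalized counts.

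Nppb (ENSMUSG00000029019, chromosome 4 from 147985788 to 147987205), the BNP gene, varied far more. It had 662, 1300 and 18872 normalized counts in obese mice 1, 2 and 3 and 4888, 2237 and 5214 in lean mice 1, 2 and 3. Obese mice 1 and 2 were again below every lean mouse, and obese mouse 3 was again the highest of all. The SD of the log2 values was 2.56 among obese and 0.68 among lean mice, and 59 of the 15275 tested genes had a larger SD among obese mice. For Nppa the same SDs were 0.54 and 0.11.

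Group means of Nppb were 6945 ± 10334 in obese against 4113 ± 1633 in lean mice (SD, n = 3 in each group), while on the log2 scale the fold change was -0.60 (standard error 0.95, 95% interval -2.72 to 1.51, adjusted p = 0.854 in limma). The mean of the counts and the mean of the log values thus differed in direction, and the exact permutation test of the log values, two-sided, gave p = 0.8. The edgeR test, which works on the counts, gave a log2 fold change of 0.75 (adjusted p = 0.809), and DESeq2 gave 0.76 with no p-value. Without obese mouse 3, Nppb was lower in obese atria, with a log2 fold change of -2.05 (adjusted p = 0.0131 in limma). Without obese mouse 1 it was 0.36, in the opposite direction. The direction of Nppb therefore depended on single mice. Among the 6 mice the log2 values of Nppa and Nppb had a Pearson r of 0.85, a description over libraries of which obese mouse 3 is the highest in both.

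Nppc (ENSMUSG00000026241, chromosome 1 from 86666291 to 86670571), which encodes C-type natriuretic peptide, a ligand of NPR-B made mainly outside cardiomyocytes, had 2 reads in obese mouse 1, 2 reads in lean mouse 1 and 0 reads in the other mice. Every value was under the limit of 3 reads, so a difference was not detectable at this depth and the gene was not tested.

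The receptors differed much less among mice. Npr1 (ENSMUSG00000027931, chromosome 3 from 90450591 to 90465866) encodes NPR-A, the guanylyl cyclase receptor of ANP and BNP. It had 864, 892 and 876 normalized counts in obese mice and 844, 722 and 730 in lean mice, and every obese value was above every lean value, the narrowest gap being to lean mouse 1. This was a log2 fold change of 0.20 (standard error 0.12, 95% interval -0.06 to 0.46, adjusted p = 0.541 in limma), with a two-sided exact permutation p of 0.1. With each mouse left out in turn it lay between 0.16 and 0.27. A low-level antisense transcript, Gm16048, overlaps Npr1, with a mean of 51.6 normalized counts against 821 for Npr1.

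Npr2 (ENSMUSG00000028469, chromosome 4 from 43631935 to 43651244), which encodes NPR-B, the receptor of C-type natriuretic peptide, had 1731, 2027 and 1612 normalized counts in obese and 1772, 1460 and 1485 in lean mice. Lean mouse 1 lay among the obese mice, so the groups overlapped. Npr2 had a log2 fold change of 0.19 (standard error 0.13, 95% interval -0.10 to 0.47, adjusted p = 0.620 in limma). Npr3 (ENSMUSG00000022206, chromosome 15 from 11839896 to 11905674) encodes NPR-C, the clearance receptor, which takes peptides up for degradation and lacks the cyclase domain. It had 2339, 2793 and 1930 normalized counts in obese and 2127, 2086 and 2732 in lean mice. The groups overlapped throughout, with the lowest value in obese mouse 3. The log2 fold change was 0.02 (standard error 0.16, 95% interval -0.33 to 0.37, adjusted p = 0.980 in limma), and its sign changed with quantile normalization and with the mouse left out.

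Corin (ENSMUSG00000005220, chromosome 5 from 72300025 to 72504473) encodes the cardiomyocyte membrane protease that converts pro-ANP to ANP. It had 7938, 9620 and 6580 normalized counts in obese and 7070, 6533 and 8422 in lean mice. The groups overlapped, and obese mouse 3, the highest for Nppa, was the lowest of the obese mice for Corin. For Corin the log2 fold change was 0.12 (standard error 0.16, 95% interval -0.22 to 0.47, adjusted p = 0.812 in limma), and it was -0.01 without obese mouse 2. Npr3 and Corin had a Pearson r of 0.95 over the 6 mice in log2 values, the largest among the 28 pairs of tested genes and a description only.

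Furin (ENSMUSG00000030530, chromosome 7 from 80388585 to 80405436) encodes the proprotein convertase of the secretory pathway that cuts pro-BNP and many other proproteins. It had 4076, 4216 and 4004 normalized counts in obese and 3268, 3262 and 3145 in lean mice. All obese mice were above all lean mice, and obese mouse 3 did not stand apart. Group means were 4098 ± 108 and 3225 ± 69.6 (SD, n = 3 each), a fold of 1.27. The log2 fold change was 0.35 (standard error 0.10, 95% interval 0.13 to 0.57), with an adjusted p of 0.159 in limma and a two-sided exact permutation p of 0.1. Leaving out each mouse in turn kept it between 0.33 and 0.36, with adjusted p from 0.120 to 0.461 in limma, and DESeq2 gave an adjusted p of 0.0532. The difference was thus larger than the spread between mice in each group but did not pass the adjusted threshold.

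Mme (ENSMUSG00000027820, chromosome 3 from 63241537 to 63386030) encodes neprilysin, a membrane peptidase that degrades natriuretic peptides and other small peptides. It had 105, 53.0 and 76.1 normalized counts in obese and 114, 124 and 118 in lean mice, from 52 to 181 reads. All obese mice were below all lean mice, with obese mouse 1 close to the lean range. Mme had a log2 fold change of -0.65 (standard error 0.26, 95% interval -1.23 to -0.07, adjusted p = 0.349 in limma), with a two-sided exact permutation p of 0.1. It was -0.40 without obese mouse 2, the lowest value, and -0.89 without obese mouse 1.

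**Figure D2:**
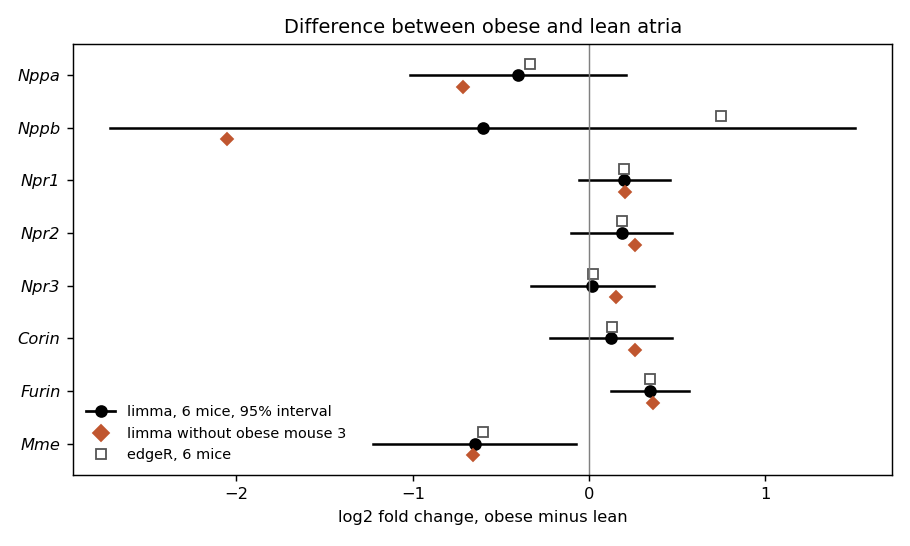
Log2 fold change, obese minus lean, of the 8 tested genes of the natriuretic peptide system. Black points and lines are the limma estimate with its 95% interval over 6 mice, orange diamonds are limma without obese mouse 3 and open squares are edgeR on the recovered reads. The interval of Nppb spans from -2.72 to 1.51 with edgeR at 0.75 and the fit without obese mouse 3 at -2.05, whereas the 3 estimates of Furin lie close together near 0.35.

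Levels of different genes were compared per kilobase of annotated exon, which for Npr3, Furin and Mme joins many isoforms. In lean atria the order of levels, in normalized counts per kilobase, was Nppa at 332761 ± 25053, Nppb at 5267 ± 2091, Corin at 1360 ± 180, Furin at 351 ± 7.58, Npr2 at 337 ± 37.1, Npr3 at 247 ± 38.5, Npr1 at 160 ± 14.3 and Mme at 10.3 ± 0.42 (SD, n = 3 each), with Nppc under the limit of detection. The mean of Nppa was 63.2 times that of Nppb. Furin and Npr2 overlapped among lean mice, and the values of all other neighbours in the order were apart. The order of means was the same in obese atria, but there Nppb ranged from 848 to 24164 per kilobase and overlapped Corin, which ranged from 1218 to 1781. Per kilobase, Nppb was below Corin in obese mice 1 and 2 and far above it in obese mouse 3, so the order of these means in obese atria rests on obese mouse 3. Among the receptors the level per kilobase fell from Npr2 to Npr3 to Npr1 in both groups.

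**Figure D3:**
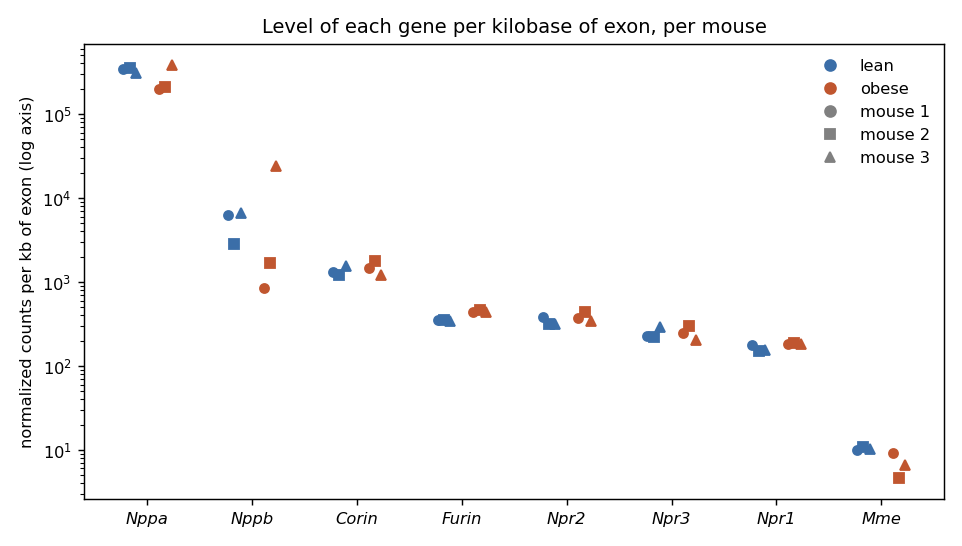
Normalized counts per kilobase of exon (log axis) for 8 genes of the natriuretic peptide system in each lean (blue) and obese (orange) mouse, in order of the lean means, with Nppc left out as under the limit of 3 reads. Nppa lies above all others in every mouse, and Nppb spreads from 848 to 24164 among the obese mice, across the range of Corin.

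Ratios of 2 genes within a mouse do not depend on the scaling of that sample. The log2 ratio of Nppb to Nppa was -8.02, -7.10 and -4.15 in obese and -5.91, -7.09 and -5.66 in lean mice. Obese mouse 3 was the highest of all and obese mouse 1 the lowest, and the difference of the group means was -0.20. It became -1.34 without obese mouse 3 and 0.60 without obese mouse 1. The log2 ratio of Corin to Nppa, the converting enzyme to its substrate, was -4.43, -4.22 and -5.67 in obese and -5.38, -5.55 and -4.97 in lean mice, a difference of 0.53, with obese mice 1 and 2 above and obese mouse 3 below every lean mouse. That difference was 0.97 without obese mouse 3, 0.36 without obese mouse 1 and 0.25 without obese mouse 2. The other differences in log2 ratio, obese minus lean, were -0.18 for Npr3 to Npr1, -0.01 for Npr2 to Npr1, 0.22 for Furin to Corin and -0.67 for Mme to Npr3. The groups overlapped in all 6 ratios, and the two-sided exact permutation p lay between 0.2 and 0.9, or 0.75 and 0.9 after adjustment over the 6.

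Stretch and hypertrophy genes, which cardiomyocytes regulate under load, not all in the direction of Nppa and Nppb, were 14 of 14 tested. Limma called none of them in either direction, beside 0.746% of all genes. Their median log2 fold change was 0.01, beside 0.0049 over all genes, and it was -0.22 without obese mouse 3. Obese mouse 3 had the highest value of all 6 mice for 9 of the 14, where it was the highest for 20.3% of all tested genes. The genes with the smallest p were Fhl1, a LIM protein of the sarcomere (0.92, adjusted p = 0.0891 in limma), Gdf15, a stress-induced cytokine (1.86, adjusted p = 0.120), Myh7, the slow myosin heavy chain (-0.41, adjusted p = 0.334), and Csrp3, muscle LIM protein (-0.36, adjusted p = 0.561). In all obese mice Fhl1 and Gdf15, 2 of the 14, were above every lean mouse, where 18% of all genes did not overlap in either direction. DESeq2 called both higher (adjusted p = 0.000306 and 0.0110), beside 3.08% of all genes in either direction, while edgeR called none of the 14. Without obese mouse 3, limma called Fhl1 (0.61) higher and Myh7 (-0.59) and Csrp3 (-0.65) lower in obese atria. That fit called 2.24% of all genes.

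The 2 genes of the list named next were chosen after their values were seen. Ankrd1, a nuclear and sarcomeric ankyrin-repeat protein, had 5935, 16620 and 95171 normalized counts in obese and 26687, 17071 and 27665 in lean mice. Actc1, cardiac actin, had 48472, 65333 and 201539 in obese and 100697, 86944 and 91994 in lean mice. Both were ordered as the 2 ligands were, with obese mouse 1 lowest, obese mouse 2 below every lean mouse and obese mouse 3 highest.

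Atrial cardiomyocyte markers checked the tissue, and some of them varied with the ligands. All 7 were present in every mouse, and their summed level was 143078, 136114 and 212768 normalized counts in obese mice 1, 2 and 3 against 215299 to 226024 in lean mice. The sum was thus low in obese mice 1 and 2, the mice with low Nppa and Nppb, and in obese mouse 3 it was just under the lean range. The most abundant members, Myl4 and Myl7, followed this order, with 98076 and 58765 normalized counts in obese mouse 3 against 54353 to 57076 and 27168 to 31186 in the other obese mice. Other members did not, and Kcnj3 (4727) and Dkk3 (14156) were at their lowest of all 6 mice in obese mouse 3, where Sln (19799) was also below every lean mouse. Sln, Mybphl, Kcnj3 and Dkk3, 4 of the 7, were lower in all obese mice than in every lean mouse. Among all tested genes, 18% did not overlap between groups in either direction. An unadjusted p under 0.05 in limma was found for 5 of the 7, where 12.2% of all genes had one. Bmp10 had 1386, 5575 and 7960 normalized counts in obese and 2211, 1375 and 5568 in lean mice, so obese mouse 2 was not low. It was the only 1 of the 7 with a positive log2 fold change (0.62). Limma and edgeR called none of the 7, and the median log2 fold change in limma was -0.44. DESeq2 called Kcnj3 and Mybphl lower (adjusted p = 0.00254 and 0.00380), beside 3.08% of all genes in either direction. Without obese mouse 3, limma called 3 of them lower, Myl4 (-0.71), Mybphl (-0.88) and Myl7, beside 2.24% of all genes in either direction. The sum of 4 ventricular markers was 10381, 9587 and 15166 in obese and 12725, 21941 and 11486 in lean mice, with none at 0 in any mouse. Of these, Myl2 and Myl3 were far higher in lean mouse 2, at 8176 and 5513 normalized counts. In the other mice Myl2 had 2290 to 3470 and Myl3 had 1596 to 2875. The part of cardiomyocyte content in the values of Nppa and Nppb was not tested.

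**Figure D4:**
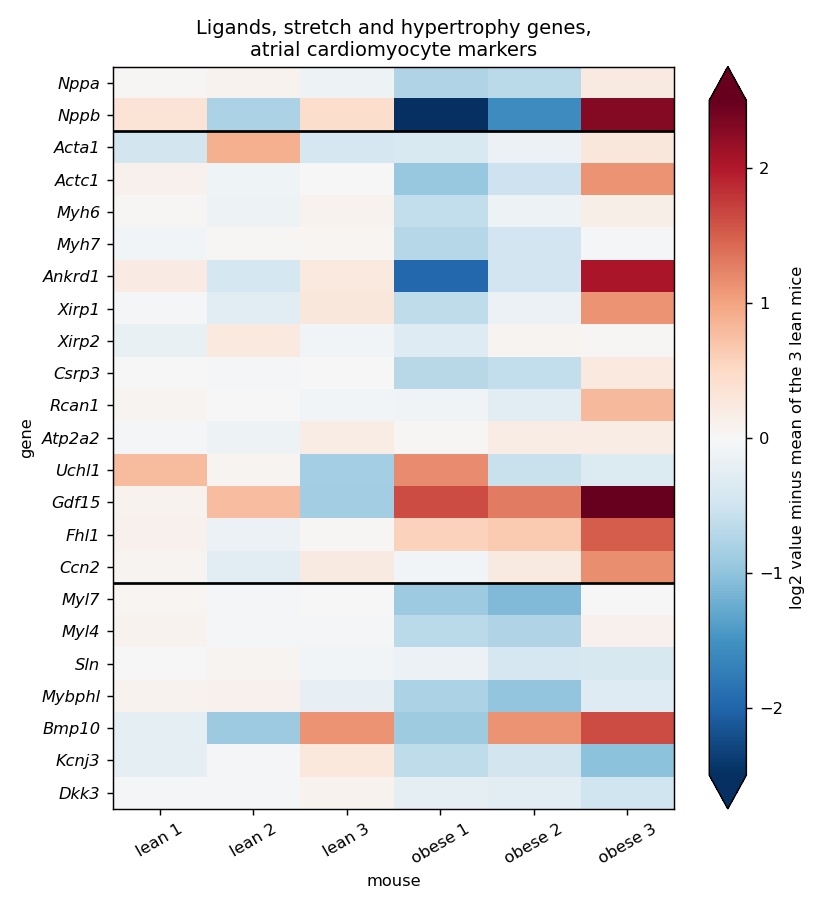
Log2 value of each gene minus its mean over the 3 lean mice, in every mouse, for Nppa and Nppb (top), 14 stretch and hypertrophy genes (middle) and 7 atrial cardiomyocyte markers (bottom). Red is above and blue below the lean mean, and colors saturate at the ends of the scale. Nppb, Ankrd1 and Actc1 are blue in obese mice 1 and 2 and red in obese mouse 3, and Myl7, Myl4 and Mybphl are blue in obese mice 1 and 2.

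Summed levels of some non-cardiomyocyte markers were apart between the groups, as Furin and Npr1 were. The sum of 8 endothelial and endocardial markers was 18252 to 19352 normalized counts in obese and 15551 to 16207 in lean mice. That of 6 macrophage markers was 9370 to 11049 in obese and 7070 to 9234 in lean mice, and that of 8 adipocyte markers was 7339 to 13244 and 3533 to 7061. None of these 3 sums overlapped between groups, whereas that of 6 fibroblast markers did, at 33117 to 34962 and 33585 to 39333. Few members carried the separation of the endothelial and adipocyte sums. Without Pecam1 the endothelial sums overlapped, at 12156 to 13094 and 11445 to 12187. Without Ucp1 and Fabp4 the adipocyte sums overlapped, at 1257 to 3718 and 568 to 2747. The macrophage sums stayed apart without Cd68, but Cd68 was a small part of them, at 186 to 357 normalized counts. No other macrophage marker was left out, so whether few members carried that separation was not tested. These sums with genes left out were added after the data were seen. Of the single markers, 3 of 8 endothelial, 2 of 8 adipocyte and 1 of 6 macrophage genes were higher in all obese mice. Among all tested genes, 18% did not overlap between groups in either direction. Of all these markers, limma called only the adipocyte gene Ucp1, beside 0.746% of all genes in either direction. DESeq2 called Ucp1, Fabp4, Pecam1 and Nfatc1, beside 3.08% of all genes. No marker was at 0 in any mouse. The part of these cells in the values of Furin, Npr1 and Mme was not tested.

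Among regulators of Nppa and Nppb, 23 of 24 were tested. Limma called 0 higher and 1 lower, beside 0.484% higher and 0.262% lower of all genes. The median log2 fold change was -0.05. Hopx, a homeodomain protein without DNA binding of its own that restrains SRF, fell in obese atria, from 2629, 3251 and 2582 normalized counts in lean mice to 1382, 1303 and 1858 in obese mice. Its log2 fold change was -0.91 (standard error 0.15, adjusted p = 0.0310 in limma). Next by p were Hey1, a Notch target and repressor (-0.37, adjusted p = 0.285 in limma), Mef2d, a MADS-box factor (0.27, adjusted p = 0.378), and Meis1, a homeobox factor (-0.30, adjusted p = 0.424).

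Of 26 cGMP signaling genes, 25 were found and 19 tested, with 0 called in either direction by limma, edgeR or DESeq2. The median log2 fold change was -0.04, or 0.06 without obese mouse 3. Pde9a, a cGMP-specific phosphodiesterase, had 136, 107 and 115 normalized counts in obese and 184, 209 and 192 in lean mice. All obese mice were below all lean mice, and its log2 fold change was -0.71 (adjusted p = 0.101 in limma). The next were Gucy1a1, a subunit of soluble guanylyl cyclase (-0.46, adjusted p = 0.336 in limma), Irag1, a substrate of cGMP-dependent protein kinase (-0.38, adjusted p = 0.336), and Pde3b, a phosphodiesterase that cGMP inhibits (0.36, adjusted p = 0.431).

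Of 12 other peptide proteases and ligands, 9 were tested. Limma called 0 of them higher and 1 lower, beside 0.484% higher and 0.262% lower of all genes. The median log2 fold change was -0.06, or -0.11 without obese mouse 3. Adm, which encodes the vasodilator adrenomedullin, fell in obese atria, from 1092, 939 and 1072 normalized counts in lean mice to 449, 603 and 678 in obese mice (log2 fold change -0.86, standard error 0.16, adjusted p = 0.0442 in limma). Pcsk6, the convertase that activates corin, had 861, 828 and 1037 in obese and 1256, 1233 and 1284 in lean mice. Its values did not overlap between groups, and the log2 fold change was -0.48 (adjusted p = 0.111 in limma), or -0.57 without obese mouse 3 (adjusted p = 0.0277). DESeq2 called Pcsk6 lower on all 6 mice (adjusted p = 0.0312). The remaining 2 by p were Ece1, the endothelin-converting enzyme (0.31, adjusted p = 0.371 in limma), and Dpp4, a peptidase that trims BNP (-0.25, adjusted p = 0.682). The calls of Hopx and Adm were both lost when any mouse other than obese mouse 3 was left out, with adjusted p up to 0.142 for Hopx and 0.165 for Adm. The call of Adm was also lost with edgeR TMM (adjusted p = 0.0532), where that of Hopx was kept (0.0412). DESeq2 called both lower, with adjusted p = 0.000181 for Adm and 1.17e-05 for Hopx, beside 3.08% of all genes in either direction. Over the alternatives on all 6 mice, adjusted p ranged up to 0.200 for Adm and 0.189 for Hopx.

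Genes of the atrial secretory granule, 10 of 14 tested, had 0 calls by limma. Their median log2 fold change was -0.16, and without obese mouse 3 it turned to 0.02. Those with the smallest p were Rab3a, a GTPase of secretory vesicles (-0.43, adjusted p = 0.214 in limma), Cpe, carboxypeptidase E (-0.18, adjusted p = 0.552), Chgb, chromogranin B (-0.39, adjusted p = 0.879), and Pam, the main membrane protein of atrial granules (0.08, adjusted p = 0.912). Pam was nearly level across mice, with 140849, 168938 and 167210 normalized counts in obese and 143446, 135481 and 172544 in lean mice.

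**Figure D5:**
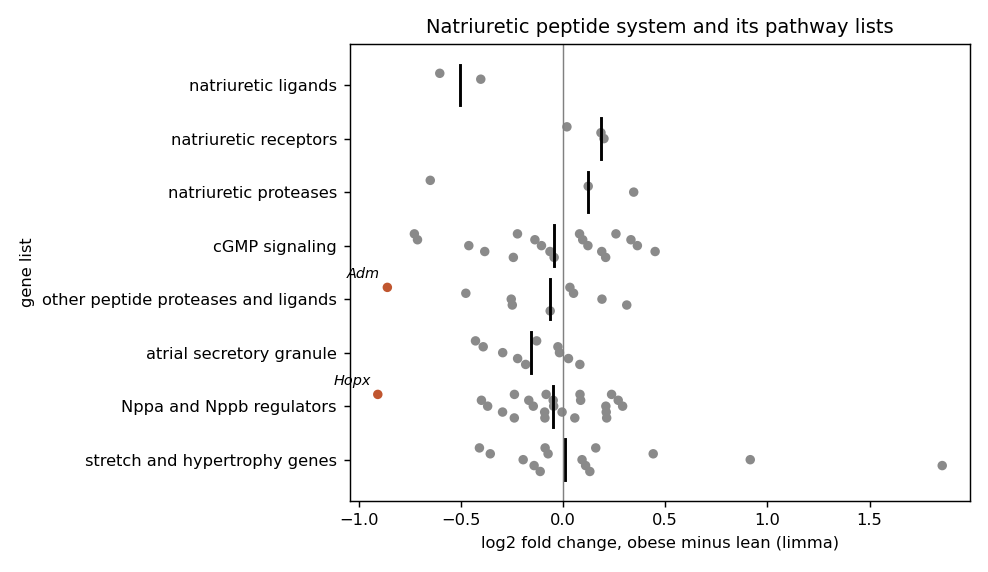
Log2 fold change, obese minus lean (limma), of every tested gene in 8 lists, the natriuretic ligands, receptors and proteases and 5 lists of related genes, with vertical bars at the list medians. Adm (-0.86) and Hopx (-0.91), in orange, had an adjusted p under 0.05, and all other genes, in gray, did not.

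Over the 6 mice, the genes whose log2 values were most like those of Nppa were Tpm1 (Pearson r = 0.995), Itgb1bp2 (0.993), Mtfp1 (0.992), Baiap2l1 (0.9903) and Fbxw8 (0.989). For Furin, the gene with the smallest p of the 8, they were Mt2 (0.994), Uhrf1bp1l (0.993), Ms4a4a (0.993), Lyve1 (0.992) and Msr1 (0.992). For Nppb, added after its values were seen, they were Inpp5j (0.993), Dnajb5 (0.991), Ddx39b (0.991), Nucb2 (0.989) and Mydgf (0.988). These are the highest of all correlations with the other tested genes, each over 6 libraries, and describe those libraries only. None of the other genes within the same stretch of chromosome 4, from Miip to Agtrap, was called by limma, and Gm13054 had a log2 fold change near 0.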

How the data were processed

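The authors sequenced directional libraries of atrial RNA, aligned the reads to GRCm38 with STAR, kept unique reads, used Salmon to assign these to Ensembl genes, and normalized with DESeq2 (versions not given in the sources used here). The deposited signal per gene and mouse is the read count divided by a size factor. The deposited columns of the authors' own comparison (log2 fold changes, p-values and scores that rank genes) were not used here. In every mouse 100% of the values were whole multiples, within 0.01 read, of one step, which gave the reads back; for obese mouse 1 the step was nearly 1. Symbols were matched regardless of case, with GENCODE names for 42462 of 43432 identifiers, and 1 row without a name held 0 reads.

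Normalized values entered limma 3.58.1 (R 4.3.3, variance trend, pseudocount 1, mean of at least 10, Benjamini-Hochberg threshold 0.05) over all genes, without covariates. Alternatives were quantile normalization, scaling to library totals with or without mitochondrial genes, no variance trend, other filters, a pseudocount of 0.1, a fold criterion, a replicate block, each mouse left out, edgeR 4.0.16 and DESeq2 1.42.0 on recovered reads. The fits were tested on simulated data. The genes and the 14 gene lists were chosen with earlier results of these data known. From each pathway list the 4 genes with the smallest p and any called gene were named. Likeness was the 5 highest Pearson r. Exon lengths are from GENCODE and promoters from RefSeq (GRCm38.p6). Levels under 3 reads were read as not detected.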

Additional observations from a re-analysis of the deposited data

How the results depend on the processing

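The numbers of genes called and several signs depended on the processing and on single mice. Of 15275 genes, limma called 114, without a variance trend 0 (1717 at an unadjusted p under 0.05), with an absolute log2 fold change over 1 in addition 69, and DESeq2 470. Leaving out each mouse gave from 14 (without lean mouse 2) to 342 (without obese mouse 3) genes called, 0 to 1 of the 8 tested genes of the natriuretic peptide system, a median log2 fold change of these from -0.064 to 0.18, and 0 to 6 genes of the related lists, of which limma called 2. The related lists had 1 call with scaling to library totals, 0 without a variance trend, 1 with edgeR under either normalization and 5 with DESeq2, and the median of the 8 genes was 0.16 with each of edgeR TMM, edgeR RLE and DESeq2. Scaling to library totals moved the split of all calls from 74 higher and 40 lower to 104 and 31. Nppb turned to 0.75 with edgeR TMM, 0.76 with edgeR RLE and 0.76 with DESeq2, and Npr3 to -0.024 with quantile normalization. With a mouse left out, Nppb ranged from -2.05 to 0.36, Npr3 from -0.11 to 0.15 and Corin from -0.014 to 0.26. The within-mouse log2 ratios ranged from -1.34 to 0.60 for Nppb to Nppa and from -0.096 to 0.056 for Npr2 to Npr1. The cause of these shifts was not tested.

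Over all tested genes, the deviations of same-numbered obese and lean mice, different animals, had correlations of 0.116, -0.027 and -0.0039. Not every sample correlated best with its own number. Correlations over all genes cannot show whether some genes varied with the number. The adipocyte gene Cfd, picked as an example, had 1851, 775 and 714 normalized counts in obese and 1412, 580 and 285 in lean mice 1, 2 and 3. Nppa did not share its order by number between the groups. Whether the numbers mark a shared factor was not tested. With the replicate block, limma called 157 genes and 0 of the 8. Of the related lists it then called Fhl1 (adjusted p = 0.0473) beside Adm and Hopx.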
